A study of Arabidopsis thaliana with 9 samples.

Results

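The 6 genes described here carry out proline synthesis and breakdown in Arabidopsis thaliana, and they were chosen by function, by their identifiers, from the 33602 identifiers of the count table. They are P5CS1 (AT2G39800), P5CS2 (AT3G55610), P5CR (AT5G14800), ProDH1 (AT3G30775, also named ERD5), ProDH2 (AT5G38710) and P5CDH (AT5G62530). All 6 passed the filter on low counts. RNA came from leaves of wild-type Col-0 plants grown in long days, all cut 30 days after sowing, with 3 biological replicates in each of 3 treatments and no other genotype or agent. Plants under prolonged warming (PW) were moved 23 days after sowing to days at 28 °C and nights at 23 °C, where they stayed for 7 days. Plants under heat shock (HS) were kept like the controls until they were held at 38 °C for 6 hours. Control plants (CK) had days at 23 °C and nights at 18 °C throughout. The number of plants behind each RNA sample is not given in the sources used here.

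Proline is made from glutamate in a pair of steps. Pyrroline-5-carboxylate synthetase (P5CS), the rate-limiting enzyme, reduces glutamate to pyrroline-5-carboxylate (P5C), and P5C reductase (P5CR) turns P5C into proline. In mitochondria proline dehydrogenase (ProDH) oxidises proline back to P5C and P5C dehydrogenase (P5CDH) oxidises P5C to glutamate. In leaves proline is known as an osmolyte that builds up in drought and salt stress, when P5CS1 is induced and ProDH1 repressed, while P5CS2 is regarded as the housekeeping synthetase.

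Library totals ranged from 11660970 to 17768334 counts. HS replicate 3 stood apart from the other HS libraries: its log2 CPM (counts scaled to a common library size) correlated with theirs at 0.969 and 0.970 across genes, against 0.996 between the other HS libraries, and genes are not independent replicates. The small heat shock protein gene HSP21 had from 457 to 1407 CPM in HS libraries and at most 2 counts in any CK library, which is at least 5500-fold higher in HS. HSP22.0 was at least 2510-fold higher and HSP101 higher by 1.60 on the log2 scale in HS vs CK. Of the tissue markers, RBCS1A, LHCB1.1, LHCA1, APL, XCP1, KAT1 and FAMA were called in at least 1 comparison. The summed CPM of 4 leaf mesophyll markers was 39430 to 43330 in PW, 17890 to 24180 in HS and 10360 to 14260 in CK. They did not move together in HS. LHCB1.1 averaged 4534 CPM in HS and 676 in CK, LHCA1 6446 and 2257, and GLDP1 2946 and 1348, while RBCS1A averaged 7594 and 8447. Guard cell markers (KAT1 and FAMA) summed to 40.7 to 72.8 CPM in PW libraries, 24.3 to 41.5 in HS and 32.7 to 34.5 in CK. Their means moved in opposite directions in HS vs CK: KAT1 averaged 22.9 CPM in HS and 15.8 in CK, and FAMA 11.5 and 18.0. Of the 3 root markers, IRT1 and PHT1;1 had at most 10 counts in any library, and their sum, nearly all PYK10, reached 53.8 CPM under PW, 14.5 under HS and 30.4 in CK. The flower marker sum (AP1, AP3, PI and AG) varied within treatments, from 2.31 to 18.6 CPM in PW, from 1.32 to 3.35 in HS and from 1.26 to 19.2 in CK.

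The first synthesis gene and both proline dehydrogenase genes carried the changes called against CK, and P5CR was called only between the treatments. P5CS1 was higher than CK under both treatments, ProDH1 was lower than CK under heat shock, and ProDH2 was higher than CK under prolonged warming and lower than CK under heat shock. A gene was called where edgeR's quasi-likelihood test gave a Benjamini-Hochberg adjusted p under 0.05 over the 18952 tested genes together with at least a 2-fold change. In PW vs CK 2 of the 6 genes were called, both higher, beside 16.4% of all tested genes (8.82% higher and 7.6% lower), and the same number passed on the adjusted p alone, beside 31.0%. P5CS1 lost its call there without PW replicate 2, PW replicate 3 or any 1 CK library and with library totals alone, which left 1 gene, ProDH2. In HS vs CK 3 were called, 1 higher and 2 lower, beside 21.8% of all tested genes (11.3% higher and 10.5% lower), and 5 passed on the adjusted p alone, beside 39.2%, of which ProDH2 and P5CR did not pass in every alternative. In PW vs HS 3 were called, 2 higher and 1 lower, beside 14.5% (6.92% higher and 7.57% lower), and 4 passed on the adjusted p alone, beside 26.7%, of which P5CDH did not pass in every alternative. The CPM of the groups did not overlap for 2 of the 6 genes in PW vs CK (53.1% of all tested genes), for 5 in HS vs CK (57.9%) and for 5 in PW vs HS (38.5%). The median log2 fold change of the 6 genes was 0.022 (PW vs CK), 0.516 (HS vs CK) and -0.402 (PW vs HS), against -0.04, 0.029 and -0.025 over all tested genes. PW vs CK and HS vs CK share the CK libraries.

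**Figure D1:**
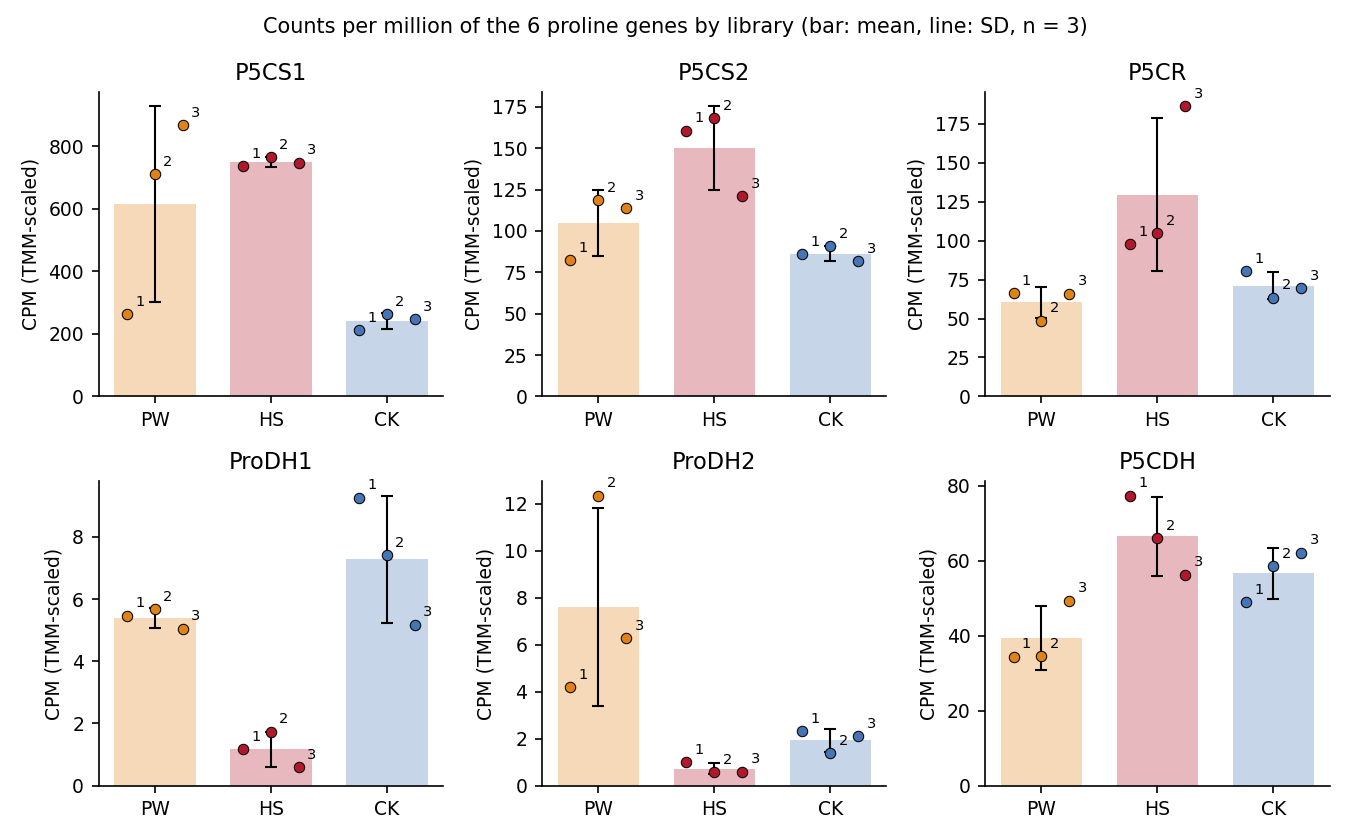
CPM (scaled by TMM) of the 6 proline genes in each library, with PW left, HS in the middle and CK right. Points are libraries with their replicate number, bars are means and lines the SD (n = 3). P5CS1 was at 736.5 to 766 CPM in the HS libraries, and PW replicate 1 lay at 264 CPM, close to the CK libraries, while ProDH1 and ProDH2 were lowest in HS.

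**Figure D2:**
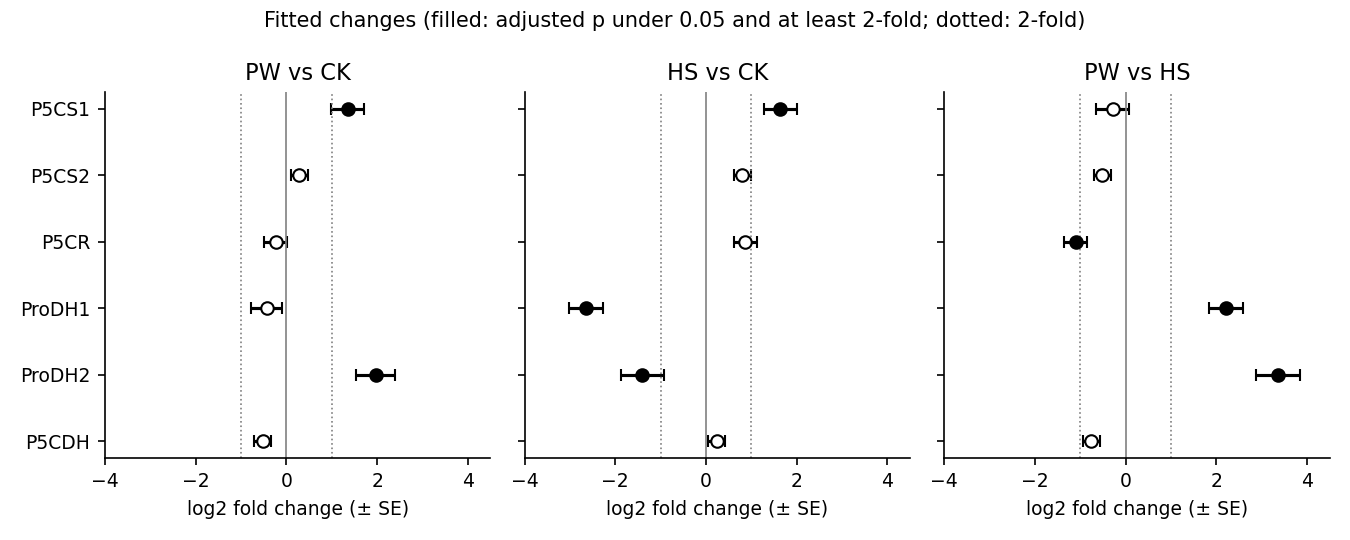
Fitted log2 fold change ± SE of each proline gene in PW vs CK, HS vs CK and PW vs HS, with filled points for genes called. ProDH1 and ProDH2 were the genes called lower in HS vs CK (-2.65 and -1.40), and ProDH2 had the largest difference between PW and HS (3.37).

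Levels of different genes were compared as CPM per kilobase of exon. P5CS1 had the highest level of the 6 genes in every library, at 207 ± 105 under PW, 253 ± 5.06 under HS and 81.1 ± 8.66 in CK (SD, n = 3 each). P5CR averaged 41.8 under PW, 89.8 under HS and 49.3 in CK per kilobase. P5CS2 averaged 37.6 under PW, 53.8 under HS and 31.0 in CK per kilobase, and its libraries overlapped those of P5CR in PW but lay below them in HS and in CK. P5CDH followed with 15.2 under PW, 25.7 under HS and 21.9 in CK per kilobase. The proline dehydrogenase genes were the lowest in every library: ProDH1 averaged 2.48 under PW, 0.536 under HS and 3.35 in CK per kilobase, and ProDH2 3.68 under PW, 0.352 under HS and 0.936 in CK. ProDH1 lay above ProDH2 in every CK library, while the 2 genes overlapped in PW and in HS.

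P5CS1, on the reverse strand of chromosome 2 (chr2:16598072-16603319, TAIR10.1), encodes the synthetase isoform known to be induced by abscisic acid (ABA), salt and drought. It had 264, 712 and 868 CPM in PW libraries, 736.5, 766 and 748 in HS libraries, and 213, 263 and 247 in CK libraries. HS libraries were alike and all far above CK, whereas in PW replicate 1 exceeded the highest CK library by little and replicates 2 and 3 reached the HS level. P5CS1 rose 2.55-fold in PW vs CK (log2 fold change 1.35, SE 0.37, adjusted p = 0.0222, edgeR quasi-likelihood test). It rose in HS vs CK by a log2 change of 1.64 (SE 0.37, adjusted p = 0.0082). The difference of PW from HS had a log2 value of -0.29 (SE 0.36, adjusted p = 0.59), with overlapping groups.

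The P5CS1 call in HS vs CK held in all 14 alternative analyses, with log2 fold changes from 1.47 to 1.70. The call in PW vs CK did not. It was lost without PW replicate 2 (log2 fold change 1.23, adjusted p = 0.067), PW replicate 3 (1.02, 0.079), CK replicate 1 (1.26, 0.082), CK replicate 2 (1.41, 0.062) or CK replicate 3 (1.36, 0.072), and without PW replicate 1 the value was 1.71 (adjusted p = 0.000698). With library totals alone, without TMM factors, the change was 0.89 (adjusted p = 0.0502) beside a median of -0.453 over all tested genes. PW replicate 1 also differed from PW replicates 2 and 3 in other genes: its leaf vein marker sum (SUC2, APL and XCP1) was 92.9 CPM against 255 and 246 (149 to 255 in HS and 122 to 145 in CK), its flower marker sum 18.6 CPM against 2.31 and 6.18, and its level of the clock gene CCA1 27.0 CPM against 105.5 and 76.9. Most of the vein sum was SUC2, at 68.2 CPM in PW replicate 1 against 214 and 215 in PW replicates 2 and 3. APL had 19.5 CPM in PW replicate 1 against 36.1 and 25.1. XCP1 was not lower there, at 5.21 CPM against 4.24 and 5.87. Vein markers were not alone in differing. Of the mesophyll markers, GLDP1 had 826 CPM in PW replicate 1 against 3838 and 3765. RBCS1A was higher there, at 24150 CPM against 17630 and 18720. KAT1 had 24.3 CPM against 40.7 and 30.4, and FAMA 16.4 against 32.1 and 22.05. PYK10, a root marker, had 53.8 CPM against 0.0963 and 2.47. The part of these differences in the P5CS1 level was not tested. In leaf RNA, fewer cells of a type and less RNA per cell cannot be told apart.

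P5CS2, on the reverse strand of chromosome 3 (chr3:20624020-20629295), had 82.2, 118.5 and 114 CPM in PW libraries, 161, 168 and 121 in HS libraries, and 86.1, 90.8 and 81.7 in CK libraries. All HS libraries lay above all CK libraries, and PW overlapped CK. Its rise of 1.74-fold in HS vs CK passed the adjusted p (0.00972, log2 fold change 0.80, SE 0.19) but not the 2-fold threshold. The log2 fold change was 0.28 in PW vs CK (SE 0.19, adjusted p = 0.282) and -0.52 in PW vs HS (SE 0.19, adjusted p = 0.0708). The coding sequences of P5CS1 and P5CS2 are identical at 86.3% of aligned bases, with a longest identical run of 53 bases. Coding reads longer than that run differ between the genes. The clean bases and clean reads that the paper reports put the mean read length above that run. Any shorter reads could be split between the genes where the authors' counting allowed it.

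P5CR, on the reverse strand of chromosome 5 (chr5:4785960-4787996), encodes the last enzyme of synthesis, which in Arabidopsis is a single gene. It had 66.3, 48.7 and 65.9 CPM in PW libraries, 97.6, 105 and 186 in HS libraries, and 80.3, 63.5 and 69.7 in CK libraries. Every HS library was above every PW and CK library, and HS replicate 3 was far above the other HS libraries. P5CR was 1.82-fold higher in HS vs CK, past the adjusted p (0.0258, log2 fold change 0.86, SE 0.26) and under 2-fold. The adjusted p was over the threshold without CK replicate 1 (0.0513), CK replicate 2 (0.095) or CK replicate 3 (0.0847) and with library totals alone (0.117). In PW vs HS it fell 2.15-fold (log2 fold change -1.104, SE 0.26, adjusted p = 0.0139). That call was lost without HS replicate 3 (-0.75) and without PW replicate 2 (-0.97), where the change was under 2-fold. In PW vs CK the log2 fold change was -0.24 (SE 0.26, adjusted p = 0.511), with overlapping groups.

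ProDH1, on the reverse strand of chromosome 3 (chr3:12448636-12451556), encodes the main leaf proline dehydrogenase, known for repression in water stress and for induction by proline on rehydration. It had 64, 59 and 49 counts in PW libraries, 15, 21 and 8 in HS libraries, and 200, 129 and 81 in CK libraries, or 5.47, 5.68 and 5.05 CPM in PW, 1.16, 1.73 and 0.596 in HS, and 9.25, 7.41 and 5.18 in CK. The HS libraries were below all others, and PW libraries, close to each other, overlapped the lower end of CK. ProDH1 fell 6.26-fold in HS vs CK (log2 fold change -2.65, SE 0.38, adjusted p = 0.000988). It was 4.64-fold higher in PW vs HS (log2 fold change 2.21, SE 0.38, adjusted p = 0.00332). Both calls held in all 14 alternatives, from -3.03 to -2.33 in the first comparison and from 1.89 to 2.605 in the second. In PW vs CK the log2 fold change was -0.43 (SE 0.34, adjusted p = 0.363).

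ProDH2, on the forward strand of chromosome 5 (chr5:15501126-15504269), encodes a second proline dehydrogenase, known from vascular tissue and senescing leaves. It had 49, 128 and 61 counts in PW libraries, 13, 7 and 8 in HS libraries, and 50, 24 and 33 in CK libraries, or 4.19, 12.3 and 6.28 CPM in PW, 1.01, 0.578 and 0.596 in HS, and 2.31, 1.38 and 2.11 in CK. The 3 treatments did not overlap, with PW highest and HS lowest, and PW replicate 2 was well above the other PW libraries. ProDH2 rose 3.91-fold in PW vs CK (log2 fold change 1.97, SE 0.44, adjusted p = 0.00931), and this call held in all 14 alternatives (1.43 to 2.26). It was 10.3-fold higher in PW vs HS (log2 fold change 3.37, SE 0.48, adjusted p = 0.0015), also in all alternatives (2.83 to 3.67).

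The fall of ProDH2 in HS vs CK was 2.64-fold (log2 fold change -1.40, SE 0.47, adjusted p = 0.0425) and rested on few counts. It lost its call in 7 of the 9 analyses that left out a library: without HS replicate 1 (-1.70), HS replicate 2 (-1.26), HS replicate 3 (-1.27), CK replicate 1 (-1.26), CK replicate 2 (-1.60), CK replicate 3 (-1.35) or PW replicate 3 (-1.40). ProDH1 and ProDH2 share 76.7% of aligned coding bases, with no identical run over 17 bases.

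P5CDH, on the reverse strand of chromosome 5 (chr5:25099003-25103312), encodes the dehydrogenase that completes breakdown. It had 34.4, 34.6 and 49.4 CPM in PW libraries, 77.3, 66.0 and 56.2 in HS libraries, and 49.0, 58.6 and 62.2 in CK libraries. PW replicates 1 and 2 were below all other libraries, PW replicate 3 lay just above CK replicate 1, and HS overlapped CK. P5CDH was 1.69-fold lower in PW vs HS (log2 fold change -0.75, SE 0.19, adjusted p = 0.0186), which is under 2-fold. The adjusted p was 0.0582 with only these 2 treatments in the fit, 0.0534 without PW replicate 1, 0.0552 without PW replicate 2, 0.0658 without HS replicate 1 and 0.0505 without HS replicate 2. The log2 fold change was -0.52 in PW vs CK (SE 0.19, adjusted p = 0.0651) and 0.23 in HS vs CK (SE 0.19, adjusted p = 0.347), so that no comparison called it.

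The 3′ end of P5CDH overlaps SRO5 (AT5G62520), which lies on the opposite strand at chr5:25097944-25099907. This convergent pair is known from salt stress, where SRO5 transcripts give rise to small RNAs that cut P5CDH mRNA. The overlap runs over 905 bases and takes up 811 of the 2589 exonic bases of P5CDH. SRO5 had 0, 1 and 1 counts in PW libraries, 1, 10 and 1 in HS libraries, and 8, 0 and 4 in CK libraries. Whether the counting used strand is not given in the sources used here, and without strand the reads of the overlap cannot be told apart. P5CS1 and P5CS2 share only 85 and 32 exonic bases with a neighbour on the opposite strand, and P5CR, ProDH1 and ProDH2 overlap no annotated gene.

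The 250 bases before the annotated starts of 4 of these genes are shown because the genes differ in response and in the motifs found there. They were read from TAIR10.1, 5′ to 3′ on the strand of the gene, with motif matches in capitals. The motifs searched on both strands were ACTCAT, known as the proline-responsive element of ProDH genes and a site of bZIP factors, ACGTG, the core of the ABA-responsive element, and GAANNTTC, a core of heat shock elements.
P5CS1, chr2:16603320-16603569, reverse strand: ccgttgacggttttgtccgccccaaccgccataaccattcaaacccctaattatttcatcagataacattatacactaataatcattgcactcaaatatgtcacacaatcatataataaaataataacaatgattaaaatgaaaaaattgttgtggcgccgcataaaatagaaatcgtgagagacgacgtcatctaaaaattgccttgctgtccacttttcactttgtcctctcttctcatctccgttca
ProDH1, chr3:12451557-12451806, reverse strand: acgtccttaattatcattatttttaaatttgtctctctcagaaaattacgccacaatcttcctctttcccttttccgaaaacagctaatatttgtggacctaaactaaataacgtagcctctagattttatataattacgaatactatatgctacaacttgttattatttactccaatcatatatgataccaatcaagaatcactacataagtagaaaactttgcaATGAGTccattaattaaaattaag
ProDH2, chr5:15500876-15501125, forward strand: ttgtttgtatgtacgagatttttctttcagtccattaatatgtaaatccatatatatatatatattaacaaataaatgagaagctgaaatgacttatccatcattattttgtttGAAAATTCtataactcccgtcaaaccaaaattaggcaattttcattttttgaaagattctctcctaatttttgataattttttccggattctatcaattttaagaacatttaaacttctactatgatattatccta
P5CDH, chr5:25103313-25103562, reverse strand: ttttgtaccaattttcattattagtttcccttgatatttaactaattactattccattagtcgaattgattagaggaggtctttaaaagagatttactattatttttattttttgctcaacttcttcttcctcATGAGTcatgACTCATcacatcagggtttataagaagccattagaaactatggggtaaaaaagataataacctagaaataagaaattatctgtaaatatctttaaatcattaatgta

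ACTCAT was found once in the ProDH1 window, as its reverse complement 19 bases before the start, and at 2 places in the P5CDH window, 112 and 102 bases before the start, on opposite strands. It occurs in 12.3% of the 27443 promoter windows of this length. ProDH2 held no ACTCAT in its window and held 1 match to GAANNTTC, 129 bases before the start, a motif in 9.55% of windows. P5CR held 1 match to ACGTG 47 bases before its start, which 22.9% of windows contain. None of the 3 motifs was found in the windows of P5CS1 or P5CS2. A match is a description of letters and not a bound site, and windows without one say only that these letters are not in them. A link between the motifs and the changes in level was not tested.

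Ratios between genes within a library do not depend on the scaling between libraries. The P5CS1 level per kilobase was 3.01, 5.63 and 7.14 times that of P5CS2 in PW libraries, 4.29, 4.28 and 5.80 times in HS libraries, and 2.32, 2.71 and 2.84 times in CK libraries. The ratio was above every CK library in all PW and HS libraries, although PW replicate 1 was only just above. The difference of mean log2 ratios was 0.92 in PW vs CK and 0.86 in HS vs CK (exact permutation p = 0.1 for each, two-sided, the smallest that 3 against 3 libraries allow, and 0.15 after adjustment over 9 ratio tests). Between PW and HS it was 0.06, with overlapping groups (exact permutation p = 1.0).

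The ratio of ProDH1 to ProDH2 was 1.24, 0.438 and 0.764 in PW libraries, 1.097, 2.85 and 0.951 in HS libraries, and 3.80, 5.11 and 2.33 in CK libraries. It was lower in every PW library than in any CK library, and HS overlapped both. The difference of mean log2 ratios in PW vs CK was -2.26 (exact permutation p = 0.1, adjusted p = 0.15) and in HS vs CK -1.31 (exact permutation p = 0.2, adjusted p = 0.257). In PW vs HS it was -0.95 (exact permutation p = 0.3, adjusted p = 0.337).

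The ratio of P5CS1 to ProDH1, from the first step of synthesis to the first step of breakdown, was 35.4, 91.7 and 126 in PW libraries, 463, 324 and 919 in HS libraries, and 16.8, 26.0 and 34.9 in CK libraries. The 3 treatments did not overlap, with HS highest and CK lowest, although PW replicate 1 and CK replicate 3 were nearly equal. As a ratio of geometric means it was 2.99 times the CK value in PW, 20.8 times the CK value in HS, and in PW 0.144 times the HS value (exact permutation p = 0.1 for each, the smallest possible).

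**Figure D3:**
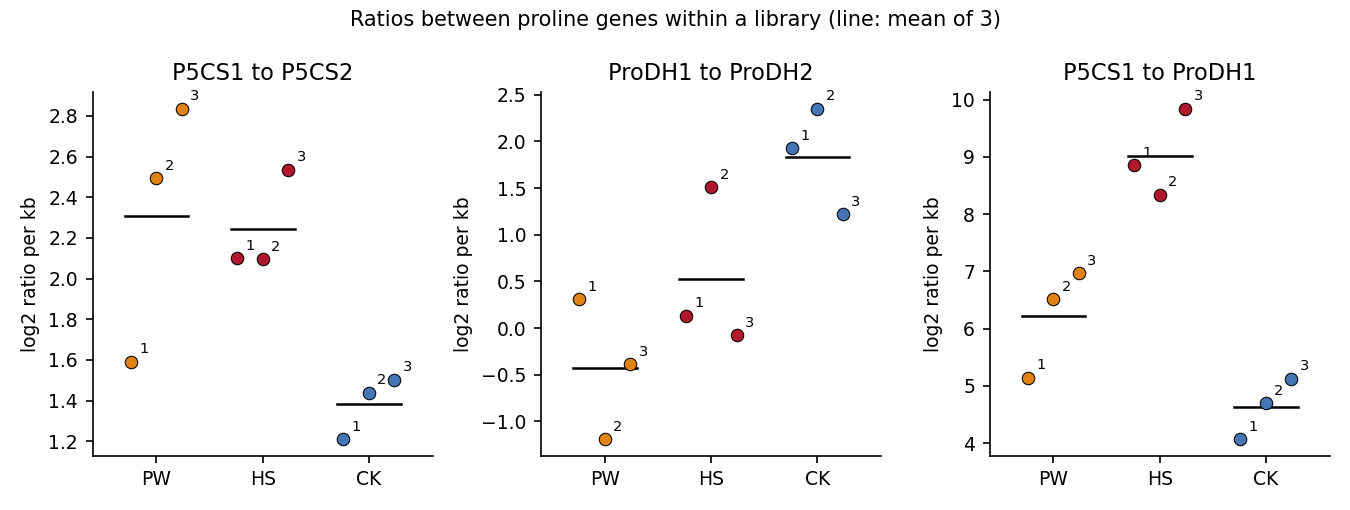
Log2 ratio of CPM per kilobase between pairs of proline genes in each library, with PW left, HS in the middle and CK right, and lines at the mean of 3. The ratio of P5CS1 to ProDH1 was highest in the HS libraries (324 to 919 on the linear scale), and the ratio of ProDH1 to ProDH2 was lower in each PW library than in each CK library.

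The genes whose log2 CPM followed P5CS1 most closely over the 9 libraries were AT3G26000 (annotated as a ribonuclease inhibitor, Pearson r = 0.992), AT5G26960 (a kelch repeat protein, 0.974), LOX1 (lipoxygenase, 0.969), DXPS3 (0.966) and AT2G14910 (0.963). For ProDH1 they were AT5G20110 (0.983), AT4G36500 (0.979), AT5G11070 (0.978), AT4G29050 (0.977) and the ethylene response factor gene ERF104 (0.977). P5CS1 correlated at 0.854 with P5CS2 and at -0.679 with ProDH1, and ProDH1 correlated at -0.824 with P5CR and at 0.584 with ProDH2. These values describe 9 libraries of 3 treatments, which share the differences between treatments, and genes were ranked among all 18952.

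P5C, which lies in both synthesis and breakdown, is also reached from arginine through ornithine. Of the 3 genes of this route 2 were called higher in HS vs CK, beside 11.3% of all tested genes. None was called in PW vs CK or PW vs HS. The median log2 fold change of the 3 genes in HS vs CK was 1.01 against 0.029 over all tested genes. ARGAH2, an arginase gene, averaged 299 CPM in HS and 81.0 in CK (log2 fold change 1.89, adjusted p = 0.0128), with overlapping groups, and its call was lost without CK replicate 1. OAT, the ornithine aminotransferase gene, averaged 69.0 CPM in HS and 34.2 in CK (log2 fold change 1.01, adjusted p = 0.00401), and 7 of 14 alternatives took it under 2-fold.

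Glutamate is both the start and the end of the cycle. Of 11 genes that make or use it, 6 were called lower in HS vs CK and none higher, with a median log2 fold change of -1.11, and 3 were called lower in PW vs CK, with a median of -0.085. In PW vs HS 4 of the list were called higher, beside 6.92% of all tested genes, with a list median of 0.779. GLU1 and GLN2, the genes of this list with the highest CPM, were called in no comparison. GLU1 averaged 1934 CPM in HS and 963 in CK, with every HS library above CK (log2 fold change 1.01, adjusted p = 0.0839, edgeR quasi-likelihood test). GLN2 averaged 1590 CPM in HS and 1315 in CK, with overlapping groups. GLT1, the NADH-dependent glutamate synthase gene, averaged 209 CPM under PW, 122 under HS and 424 in CK, and fell by 1.80 on the log2 scale in HS vs CK (adjusted p = 0.000402) and by 1.02 in PW vs CK (adjusted p = 0.00598, call lost without PW replicate 1 or CK replicate 2). GDH1, a glutamate dehydrogenase gene, averaged 58.3 CPM under PW, 22.4 under HS and 61.9 in CK, a log2 change of 1.38 in PW vs HS (adjusted p = 0.00479) and of -1.47 in HS vs CK (adjusted p = 0.00253). Among cytosolic glutamine synthetase genes, GLN1;4 averaged 7.44 CPM under PW, 0.923 under HS and 4.07 in CK (-2.12 in HS vs CK, adjusted p = 0.00616) and GLN1;1 fell by 1.48 on the log2 scale in HS vs CK (adjusted p = 0.000551). GLN1;3 was called lower in PW vs CK (-1.35) and in HS vs CK (-1.11), calls that 5 and 7 of the alternatives lost. GDH3 had 22, 11 and 6 counts in PW libraries, 1, 1 and 0 in HS libraries, and 24, 4 and 4 in CK libraries, so that PW exceeded HS at least 4.79-fold. Most of the CK counts of GDH3 came from CK replicate 1. Its lower call in HS vs CK (at least 2.15-fold between mean CPM and the floor) was lost without any 1 of the HS libraries. Without PW replicate 1, PW replicate 2 or CK replicate 1, or with only 2 treatments in the fit, GDH3 did not pass the filter on low counts and was not tested.

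Of 6 transporter genes whose proteins carry proline, 1 was called higher and 1 lower in PW vs CK, beside 8.82% and 7.6% of all tested genes. In HS vs CK 3 were called lower, beside 10.5%, and in PW vs HS 1 was called higher, beside 6.92%. The median log2 fold changes of the 6 genes were -0.212 (PW vs CK), -0.613 (HS vs CK) and 0.631 (PW vs HS). LHT1, which takes up amino acids into leaf cells, averaged 7.31 CPM under PW, 3.88 under HS and 42.3 in CK. Against CK it fell by 2.53 on the log2 scale under PW (adjusted p = 0.000355) and fell by 3.45 under HS (adjusted p = 8.58e-05). AAP6, an amino acid permease gene, averaged 58.1 CPM under PW, 12.7 under HS and 42.1 in CK (2.19 in PW vs HS, adjusted p = 0.00569). It fell by 1.73 on the log2 scale in HS vs CK (adjusted p = 0.0107). HS replicate 3 had 23.5 CPM of AAP6 against 7.76 and 6.76 in the other HS libraries, and without it the log2 values were 2.995 and -2.53. PROT1, a proline transporter gene, averaged 42.5 CPM in PW and 20.0 in CK (1.09, adjusted p = 0.00113), a change of 0.67 with library totals alone. PROT3 was called lower in HS vs CK (-1.25, adjusted p = 0.0385), and 6 of 14 alternatives lost that call.

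The ACTCAT element is bound by pairs of group C and group S1 bZIP factors. Of 9 such genes, 5 (bZIP1, bZIP2, bZIP11, bZIP44 and bZIP53) are listed at 0 in every library, as are identifiers with neighbouring numbers, and no level was read from them. Of the 4 tested, 2 were called higher in PW vs CK (list median 0.94), beside 8.82% of all tested genes. None was called in HS vs CK (list median 0.634), beside 21.8%. bZIP63 averaged 50.0 CPM under PW, 10.6 under HS and 7.14 in CK, a log2 change of 2.80 in PW vs CK (adjusted p = 0.000108) and of 2.24 in PW vs HS (adjusted p = 0.000122). bZIP9 averaged 38.7 CPM under PW and 12.02 in CK (1.68, adjusted p = 0.0187), with the call lost in 4 of 14 alternatives.

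Of 5 genes of factors linked to P5CS1 (HY5, HYH, PHR1, PHL1 and ANAC055), only HYH, a light-signalling bZIP gene close to HY5, was called. The list medians were 0.484 in PW vs CK and 0.746 in HS vs CK. The share of all tested genes called higher was 8.82% in PW vs CK and 11.3% in HS vs CK. HYH averaged 7.51 CPM under PW, 5.26 under HS and 1.90 in CK (1.98 in PW vs CK, adjusted p = 0.0107, and 1.47 in HS vs CK, adjusted p = 0.0292, lost in 5 alternatives). Of 7 ABA and water deficit genes, 6 were called lower in PW vs CK and 6 lower in PW vs HS, beside 7.6% and 7.57% of all tested genes. In HS vs CK 3 were called higher and 2 lower, beside 11.3% and 10.5%. Their median log2 fold changes were -2.22 (PW vs CK), 0.861 (HS vs CK) and -2.08 (PW vs HS). P5CS1, itself known as an ABA-induced gene, was called higher in both treatments. Its call in PW vs CK was lost without PW replicate 2, PW replicate 3 or any single CK library, and with library totals alone. HAI1, a phosphatase gene strongly induced by ABA, averaged 3.89 CPM under PW, 225 under HS and 18.0 in CK (-2.22 against CK under PW and 3.64 against CK under HS, adjusted p = 0.00121 and 0.000109). RD29B, another ABA-induced gene, averaged 1.201 CPM under PW, 43.0 under HS and 6.30 in CK (-2.41 and 2.77). NCED3, of ABA synthesis, was higher in HS vs CK (2.81, adjusted p = 0.00491), and its lower call in PW vs HS (-1.90) was lost in 7 of 14 alternatives. RAB18, a dehydrin gene, averaged 19.95 CPM under PW and 104.5 under HS (-2.39 in PW vs HS, adjusted p = 0.00354). The lower calls of RAB18 and COR47 in PW vs CK (-1.53 and -1.10) were each lost in 3 alternatives. RD29A fell by 3.36 on the log2 scale in PW vs CK (adjusted p = 0.000901), and its lower call in HS vs CK (-1.28) was lost in 5 alternatives, while the dehydrin gene LTI30 fell by 2.57 in PW vs CK and fell by 3.16 in HS vs CK (adjusted p = 0.000489 and 0.000164).

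**Figure D4:**
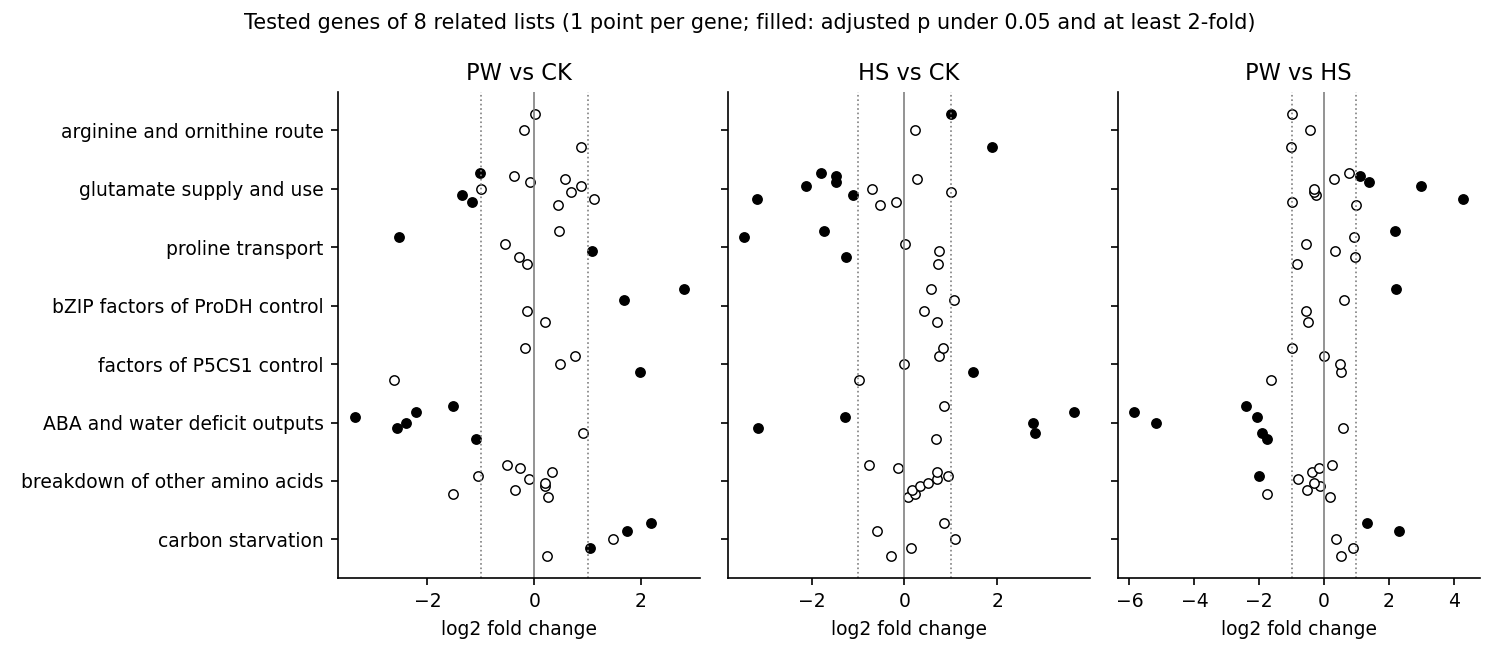
Log2 fold change of each tested gene of 8 lists related to proline metabolism in PW vs CK, HS vs CK and PW vs HS, 1 point per gene, filled where the adjusted p was under 0.05 and the change at least 2-fold. In HS vs CK 6 of 11 glutamate genes were called lower, beside 10.5% of all tested genes. In PW vs CK 6 of 7 ABA and water deficit genes were called lower, beside 7.6%. Some of these calls were lost in alternatives, as given in the text.

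Genes of the circadian clock differed between the treatments beside the proline genes. The morning gene CCA1 had 27.0, 105.5 and 76.9 CPM in PW libraries, 160, 146 and 125.5 in HS libraries, and 1.48, 1.26 and 1.34 in CK libraries. LHY, a morning gene close to CCA1, averaged 3.86 CPM under PW, 2.21 under HS and 0.264 in CK, and PRR7, a day gene, averaged 384 CPM under PW, 275 under HS and 75.5 in CK. TOC1, an evening gene, averaged 48.0 CPM under PW, 81.6 under HS and 176 in CK. Of 6 clock genes 3 were called higher and 1 lower both in PW vs CK (median 1.32) and in HS vs CK (median 0.969). None was called in PW vs HS. Among all tested genes 8.82% were called higher and 7.6% lower in PW vs CK. In HS vs CK these shares were 11.3% and 10.5%, and 14.5% were called in PW vs HS. The hour at which leaves were cut is not given in the sources used here for CK and PW, and its part in the levels of P5CS1, ProDH1 and ProDH2 was not tested.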

How the data were processed

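Leaf RNA of 9 libraries, 3 each of PW, HS and CK, was sequenced on an Illumina platform. The deposited values are raw counts: the authors gave whole reads for each gene and did not normalize them. The submitters' processing notes name CASAVA 1.8, TopHat2, HTSeq 0.6.1 and the TAIR10 build. Strand use, the handling of reads with several matches and the annotation version are not given in the sources used here. Positions, exon lengths and sequences were taken from the RefSeq annotation of TAIR10.1, which matched 32835 of 33602 identifiers.

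The filter kept the 18952 genes that reached 10 counts in 3 or more libraries. All 9 libraries entered 1 fit in edgeR 4.0.16 (limma 3.58.1, R 4.3.3) with TMM scaling, a coefficient per treatment and the quasi-likelihood test, with Benjamini-Hochberg adjustment over all tested genes. Calls required an adjusted p under 0.05 and a change of 2-fold or more. The treatment named first is the numerator of each log2 fold change. Levels are CPM from TMM-scaled library sizes. Correlations of log2 CPM, between genes and between libraries of a treatment, were taken after 1 was added to each CPM. That addition narrows differences between low values, such as those of ProDH1 and ProDH2. Log2 ratios of CPM per kilobase were compared by two-sided exact permutation tests over libraries, adjusted over 9 tests. Folds against a group with at most 3 counts in each library were set against a floor of 3 counts per library. The biological coefficient of variation was 0.273, and p-values cover the spread between 3 libraries per treatment. Python 3.11.15 and matplotlib 3.10.9 drew the figures. The scripts were tested on simulated counts.

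Alternatives tried were a filter of 1 count in any library, DESeq2 1.42.0, library totals without TMM, fits of only the 2 treatments concerned, a block for the replicate number, the adjusted p alone, and leaving out each library in turn. Those of genes outside the 6 were added after seeing the data. The labels give no shared batch or plants, but same-numbered PW and CK libraries deviated together from their group means in all 3 pairs (correlations 0.291, 0.31 and 0.136 across genes) and were treated as pairs in the block fit.

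The 6 genes and all lists were chosen with earlier results of these data known. Named were the 6 genes, the genes of each list called in at least 1 comparison (up to 6, largest change first), and the 5 genes most like P5CS1 and ProDH1. Besides these, GLU1 and GLN2 were named for their high CPM and COR47 for the loss of its call. Other genes were named where the members of a list or sum are spelled out. The lists were the arginine and ornithine route, glutamate supply and use, proline transport, bZIP factors of ProDH, factors of P5CS1, ABA and water deficit, breakdown of other amino acids, carbon starvation, the clock, heat shock proteins, and markers of mesophyll, veins, guard cells, roots and flowers.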

Additional observations from a re-analysis of the deposited data

How the results depend on the processing

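Of the log2 fold changes of the 6 genes under the alternatives, 77 of 84 (PW vs CK), 74 of 84 (HS vs CK) and 81 of 84 (PW vs HS) kept their direction and their side of the call. With library totals without TMM, 1 proline gene was called in PW vs CK, P5CS1 being lost, and the P5CS2 value in that comparison turned to -0.15 (adjusted p = 0.4); the medians over all genes were then -0.453 (PW vs CK), -0.147 (HS vs CK) and -0.264 (PW vs HS), and 21.7% of calls in PW vs CK were higher, against 53.7% with TMM (39.7% against 51.9% in HS vs CK, 27.3% against 47.8% in PW vs HS). Leaving out 1 library gave 1 to 2 calls in PW vs CK, values of P5CS1 in PW vs HS from -0.619 to 0.075, above 0 without PW replicate 1, and differences of the P5CS1 to P5CS2 log2 ratio in PW vs HS from -0.202 to 0.421. On the adjusted p alone 5 proline genes passed in HS vs CK. P5CR reached 2-fold in HS vs CK without HS replicate 1 (1.04) or HS replicate 2 (1.003), and was at 0.51 without HS replicate 3. With the replicate block the ProDH2 value in HS vs CK was -1.41 (adjusted p = 0.0738), and the block changed no other call of the 6 genes; HS libraries share only a number with PW (correlations -0.497, 0.45 and 0.085) and with CK (-0.319, 0.199 and -0.098), and 9 of 18 comparisons of a library with another treatment put it closest to its own number. Without HS replicate 3, HS vs CK had 5735 called genes and PW vs HS had 3880. Of 57 calls among list genes, 38 held in every alternative run and 19 were lost in at least 1, 4 of them with the block; both calls of GDH3 could be run in 10 of 14 alternatives, since the filter removed it in the others. The cause of these changes was not tested. ProDH1 and ProDH2 rest on at most 200 counts per library, and on at most 21 in HS, which limits the precision of their fold changes.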

Other observations

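Of 10 genes that break down other amino acids, none was called in PW vs CK or in HS vs CK. The shares called over all tested genes were 16.4% and 21.8%. In PW vs HS the median log2 fold change of the list was -0.338, and 1 gene was called lower, beside 7.57% of all tested genes. That gene was LKR/SDH, of lysine breakdown, which averaged 13.0 CPM under PW, 51.9 under HS and 27.0 in CK (-1.99 in PW vs HS, adjusted p = 0.0092, edgeR quasi-likelihood test). In HS vs CK the median of this list was 0.281, against 0.029 over all tested genes.

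Of 5 tested carbon starvation genes, 3 were called higher in PW vs CK, with a median log2 fold change of 1.47, none was called in HS vs CK, and 2 were called higher in PW vs HS. Of all tested genes, 8.82% were called higher in PW vs CK and 6.92% in PW vs HS. DIN10, a gene induced by darkness, averaged 124 CPM under PW, 48.9 under HS and 27.2 in CK (2.18 in PW vs CK, adjusted p = 0.00237). DIN1, also induced by darkness, had 14.5, 63.5 and 33.3 CPM in PW libraries, 7.53, 5.53 and 9.31 in HS libraries, and 17.5, 8.32 and 7.55 in CK libraries. PW replicate 2 had the highest CPM of DIN1, as of ProDH2, and PW replicate 1 the lowest of both in PW. DIN1 was called in PW vs CK (1.73, adjusted p = 0.0313, lost in 6 of 14 alternatives) and in PW vs HS (2.31, adjusted p = 0.0128), and without PW replicate 2 these values were 1.09 and 1.68. TPS8 was called in PW vs CK (1.05, adjusted p = 0.0279, lost in 7). With the replicate block, in which same-numbered PW and CK libraries are pairs, the value of DIN1 in PW vs CK was 1.69 (adjusted p = 0.0778) and that of TPS8 0.98 (under 2-fold), so that DIN10 was the only 1 of the 3 calls in PW vs CK that remained.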
